A study of Homo sapiens with 12 samples.

Results

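The BTG and TOB genes code for a small family of antiproliferative proteins. The rule listed 5 symbols, BTG1, BTG2, BTG3, TOB1 and TOB2, and took every locus of the deposited expression table that carried one of them, with the locus of highest mean level where a symbol had several. Of 38272 loci, 5 carried a listed symbol and 4 of the 5 genes were measured, BTG2, BTG3, TOB1 and TOB2. No locus was found under the name BTG1, which is not analysed here. The set was chosen by the measured FPKM of BTG2, which was higher after tumour necrosis factor alpha (TNF) and lower after the targeted transfection, so those differences of BTG2 are given as values with no test.

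The 12 RNA-seq libraries came from K562 cells, a line from chronic myeloid leukaemia with erythroid and megakaryocytic traits, and form 4 groups of 3 biological replicates. In the control group cells were mock-transfected with SiCt, a control siRNA, and GapCt, a control GapmeR, which is an antisense oligonucleotide that recruits RNase H. In the SG group they received Si623 and Gap01, the siRNA and the GapmeR directed at 1 long non-coding RNA that the series title names. The TNF and TNFSG groups were the mock and the targeted transfection followed by TNF at 20 ng/mL for 6 hours. All groups were transfected, and because Si623 and Gap01 were always given together, the actions of either oligonucleotide and of loss of its target cannot be told apart.

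Proteins of this family share a conserved N-terminal domain, the BTG or Tob domain, which binds the CNOT7 and CNOT8 deadenylase subunits of the CCR4-NOT complex. The complex shortens the poly(A) tails of messenger RNAs, and the family members promote this deadenylation and slow the passage from G1 into S phase. BTG2 is an immediate early gene that many stimuli induce within hours, whereas TOB1 and TOB2 have a longer C-terminal part that binds the cytoplasmic poly(A)-binding protein. Cyclin D1 is among the genes that BTG2 and TOB1 are known to repress.

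GENCODE release 29 (hg38) places BTG2 on the plus strand of chromosome 1 from 203305491 to 203309602. BTG3 lies on the minus strand of chromosome 21 from 17593653 to 17612947, TOB1 on the minus strand of chromosome 17 from 50862223 to 50867978, and TOB2 on the minus strand of chromosome 22 from 41433492 to 41447023. Exons of antisense genes overlap 281 of the 2521 exonic bases of TOB1 (TOB1-AS1) and 280 of the 2306 exonic bases of BTG3 (BTG3-AS1). The sources used here do not say whether counting used strand, so reads of these antisense partners cannot be separated from those of TOB1 and BTG3. The sequences upstream of BTG2 and BTG3 are shown because these were the members whose libraries with the targeted transfection lay below those without it, with and without TNF. They are RefSeq promoter windows (GRCh38.p14), read 5′ to 3′ on the gene's strand and ended before the first annotated transcript start. Capitals mark TGACG, the core of the cyclic AMP response element, and CCAAT, the CCAAT box, on either strand. The stretches are chr1:203305269-203305490 for BTG2 and chr21:17612948-17613151 for BTG3.
BTG2: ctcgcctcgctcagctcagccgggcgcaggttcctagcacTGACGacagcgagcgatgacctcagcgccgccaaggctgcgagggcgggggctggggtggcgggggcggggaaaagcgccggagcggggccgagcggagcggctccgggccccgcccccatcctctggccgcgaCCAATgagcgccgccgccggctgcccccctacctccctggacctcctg
BTG3: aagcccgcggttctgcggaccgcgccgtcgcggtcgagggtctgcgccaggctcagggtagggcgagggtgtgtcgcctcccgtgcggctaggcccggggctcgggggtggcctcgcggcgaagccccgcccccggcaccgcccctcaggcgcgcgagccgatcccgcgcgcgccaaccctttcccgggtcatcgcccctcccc
In the whole window, 250 bases before to 50 after the RefSeq start, BTG2 held TGACG from position -210 and CCAAT from position -76. BTG3 held neither in its window. TGACG occurred in 24.6% and CCAAT in 34.6% of 35116 windows of the same length, so both are common. Neither the NF-kB consensus (11.3% of windows), TGANTCA, the AP-1 site (7.71%), nor the serum response element (1.29%) matched in the windows of BTG2, BTG3, TOB1 or TOB2, searched on both strands. These matches describe letters in a window and were not tested for binding.

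Levels are given as FPKM, fragments scaled to the length of the locus and the size of the library, so that genes can be compared per length. The libraries differed little in depth: relative depths, read from whole-read steps in the low values, lay between 0.863 (control replicate 3) and 1.32 (TNFSG replicate 1). Total reads are not given in the table. Of the 12 K562 markers listed, 11 were found, and all 11 averaged at least 1 FPKM, with HBG2 highest at 2180 FPKM. Their summed level spanned 3680 to 8710 FPKM over control libraries and 3590 to 8310 over TNF libraries, and 3660 to 7440 for SG and 3470 to 6940 for TNFSG. Of lymphoid markers 4 of 6 were found (summed 16.7 to 41.2 FPKM for control libraries and 16 to 50.3 for TNF, with 30.1 to 267 for SG and 33.3 to 102 for TNFSG). Of monocyte and granulocyte markers only CD14 of 5 was found, at 6.66 to 9.26, 0.838 to 18.2, 1.32 to 3.44 and 1.84 to 4.89 FPKM in the same order. Of fibroblast, epithelial and endothelial markers 5 of 6 were found, summing to 213 to 295, 198 to 1340, 196 to 259 and 212 to 621 FPKM. None of these found markers was at 0 in every library, and 0 passed limma's adjusted threshold in a pairwise comparison. At an unadjusted p under 0.05 between 1 and 2 of the 11 K562 markers were counted per comparison, 1 lymphoid marker in TNFSG against TNF and 1 of the fibroblast, epithelial and endothelial list in TNF against control. How the levels of these markers moved is given as measured, and their part in the results was not tested. The TNF treatment was visible in all 5 of ICAM1, NFKBIA, TNFAIP3, CXCL8 and BIRC3, which rose in both transfections (median log2 differences 3.56 and 3.48), while 0 of 5 passed in SG against control or TNFSG against TNF by limma, with 0 at an unadjusted p under 0.05.

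BTG2 was the most abundant of the measured members in every group. Its level was 27.7, 24.7 and 22.8 FPKM in the control libraries and 91.7, 67.9 and 73.9 FPKM in the TNF libraries. In the SG libraries it was 16.4, 16 and 17.5 FPKM, and in the TNFSG libraries 49.8, 41.8 and 47.9 FPKM. The 4 groups did not overlap, and their order was SG, control, TNFSG, TNF. In bulk RNA, less BTG2 RNA per cell and fewer cells that hold it cannot be told apart.

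Whole reads could be recovered for BTG2, whose values stepped in whole numbers of reads in all 12 libraries to within 0.004 of a read, where the next best fit missed by 0.234. The control libraries held 2190, 1828 and 1420 reads and the TNF libraries 7399, 4899 and 4847. The SG libraries held 1036, 1048 and 1377 reads and the TNFSG libraries 4740, 2751 and 3324. In all, 36859 reads stood behind BTG2, and the counting error was 3.1% in SG replicate 1, the library with the fewest BTG2 reads. Whole reads could not be recovered for BTG3, TOB2 or the main TOB1 locus.

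As means, BTG2 lay at 25.1 ± 2.47 FPKM (SD, n = 3) in control and 77.8 ± 12.4 in TNF, a ratio of 3.10, and any pair of libraries from these groups gave a ratio between 2.45 and 4.02. With the targeted transfection it lay at 16.6 ± 0.801 FPKM in SG and 46.5 ± 4.2 in TNFSG, a ratio of 2.80 with a range over library pairs of 2.38 to 3.11. The level in SG was 0.663 of control, and the level in TNFSG was 0.597 of TNF. On the log2(FPKM + 1) scale these differences were 1.59 for TNF against control, 1.43 for TNFSG against SG, -0.56 for SG against control and -0.72 for TNFSG against TNF. Replicate values were higher without overlap in TNF against control at 7.59% of all loci tested and in TNFSG against SG at 8.13%. They were lower without overlap in SG against control at 4.62% and in TNFSG against TNF at 4.73%. These shares are printed for scale, since the differences were used to choose the set.

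**Figure D1:**
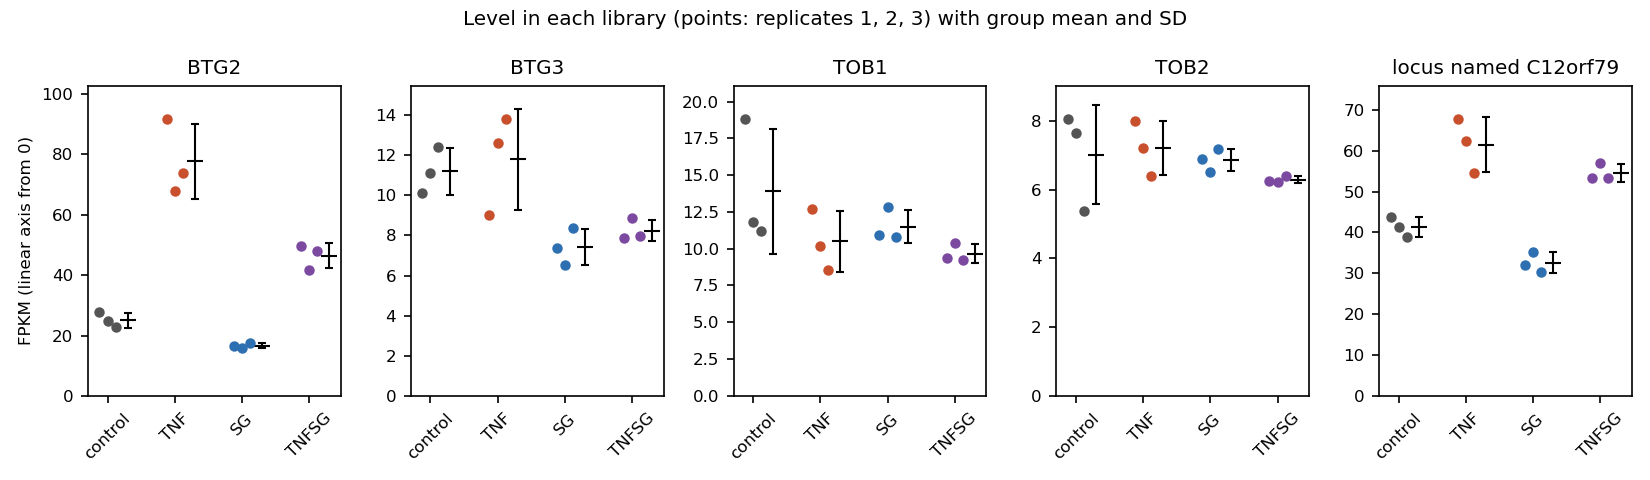
Level in FPKM (linear vertical axis from 0) of BTG2, BTG3, TOB1, TOB2 and the locus named C12orf79 in each of the 12 libraries, by group, with points for replicates 1 to 3 and the group mean and SD beside them. BTG2 runs from 16 FPKM in SG to 91.7 FPKM in TNF with no overlap between groups, while TOB1 and TOB2 overlap between control, TNF and SG.

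The rule did not name a difference in the fold response of BTG2 to TNF between the transfections. This interaction is formed from the same BTG2 values, so its test is not independent of the choice of the set. The interaction of TNF and SG was -0.16 ± 0.17 (log2, SE) for BTG2, with a 95% confidence interval from -0.54 to 0.22 and a limma adjusted p of 1.00. The test thus detected no difference in the fold response, and differences within that interval remain possible. In all loci, 0.00913% passed in the interaction, and 0 of the 4 members did by limma, with 0 at an unadjusted p under 0.05 (3.75% of all loci). For BTG3 the interaction was 0.08 ± 0.22, for TOB1 0.13 ± 0.27 and for TOB2 -0.15 ± 0.20.

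BTG3, a family member that binds and inhibits E2F1, had no difference that passed the test, with lower values in the libraries of the targeted transfection. It lay at 10.1, 11.1 and 12.4 FPKM in control and 9.02, 12.6 and 13.8 FPKM in TNF. The SG libraries gave 7.36, 6.55 and 8.38 FPKM, and the TNFSG libraries 7.89, 8.86 and 7.96 FPKM. All SG libraries lay below all control libraries and all TNFSG libraries below all TNF libraries, the latter by a narrow margin between 8.86 and 9.02 FPKM.

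The means of BTG3 were 11.2 ± 1.16 FPKM for control and 11.8 ± 2.51 for TNF, and 7.43 ± 0.916 for SG and 8.24 ± 0.54 for TNFSG (SD, n = 3). SG was 0.663 of control, a log2 difference of -0.54 ± 0.15 with a 95% confidence interval from -0.88 to -0.19 and a limma adjusted p of 0.279. TNFSG was 0.696 of TNF, a log2 difference of -0.46 ± 0.15 with a limma adjusted p of 0.401. Neither passed over all loci, and the unadjusted p values were 0.00628 and 0.0149. Of all loci tested, 1.50% were lower without overlap in both comparisons, as BTG3 was. BTG2 was lower in both as well, but those differences were used to choose the set. TNF changed BTG3 by 0.06 ± 0.15 without and 0.14 ± 0.15 with the targeted transfection, with limma adjusted p values of 0.947 and 0.830.

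TOB1, which binds both the deadenylase and the poly(A)-binding protein, had no difference that passed the test. The control libraries gave 18.8, 11.8 and 11.2 FPKM and the TNF libraries 12.7, 10.2 and 8.56. With the targeted transfection, SG gave 10.9, 12.8 and 10.8 FPKM and TNFSG 9.39, 10.4 and 9.24. Control replicate 1 stood above all other libraries. In the pairwise comparisons tested, the groups overlapped except that TNFSG lay below SG. As means these were 13.9 ± 4.24, 10.5 ± 2.07, 11.5 ± 1.13 and 9.67 ± 0.615 FPKM. The log2 difference was -0.36 ± 0.19 for TNF against control (95% confidence interval -0.79 to 0.07, limma adjusted p 0.562; -0.14 without control replicate 1) and -0.23 ± 0.19 for TNFSG against SG (adjusted p 0.742). For SG against control it was -0.22 ± 0.19 (limma adjusted p 0.761), and without control replicate 1 this difference was 0.00. A second locus also carried the name TOB1, but its 44 reads over all 12 libraries, from 0 to 11 in each, were too few to compare groups.

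TOB2, the closest relative of TOB1, was the lowest measured member in all 12 libraries. The control libraries gave 8.05, 7.64 and 5.37 FPKM and the TNF libraries 7.99, 7.2 and 6.41. With the targeted transfection, SG gave 6.89, 6.51 and 7.17 FPKM and TNFSG 6.25, 6.22 and 6.41. The TNFSG libraries were nearly equal and lay below all SG libraries and all TNF libraries, the latter by a margin smaller than the printed digits. Among the members not used to choose the set, BTG3 and TOB2 were thus lower without overlap in TNFSG against TNF, beside the 4.73% of all loci given above. As means these were 7.02 ± 1.44, 7.2 ± 0.787, 6.86 ± 0.329 and 6.29 ± 0.105 FPKM. The log2 differences were 0.05 ± 0.14 for TNF against control, -0.01 ± 0.14 for SG against control, -0.16 ± 0.14 for TNFSG against TNF and -0.11 ± 0.14 for TNFSG against SG, with limma adjusted p values from 0.792 to 0.990. In TNFSG against SG, replicate values were lower without overlap for TOB1 and TOB2 among the members and for 10.0% of all loci tested.

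Over BTG3, TOB1 and TOB2, 0 of 3 passed limma's adjusted threshold of 0.05 in each pairwise comparison. The share of all loci that passed was 1.45% in TNF against control, 1.64% in TNFSG against SG, 0.170% in SG against control and 0.128% in TNFSG against TNF. At an unadjusted p under 0.05, BTG3 alone was counted in SG against control and in TNFSG against TNF, and 0 of the 3 in the other pairwise comparisons. Of all loci tested, such a p was found at 9.86% for SG against control and 9.11% for TNFSG against TNF, and at 11.2% for TNF against control and 11.4% for TNFSG against SG, so 1 of 3 members is not set apart from the rest by this count.

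**Figure D2:**
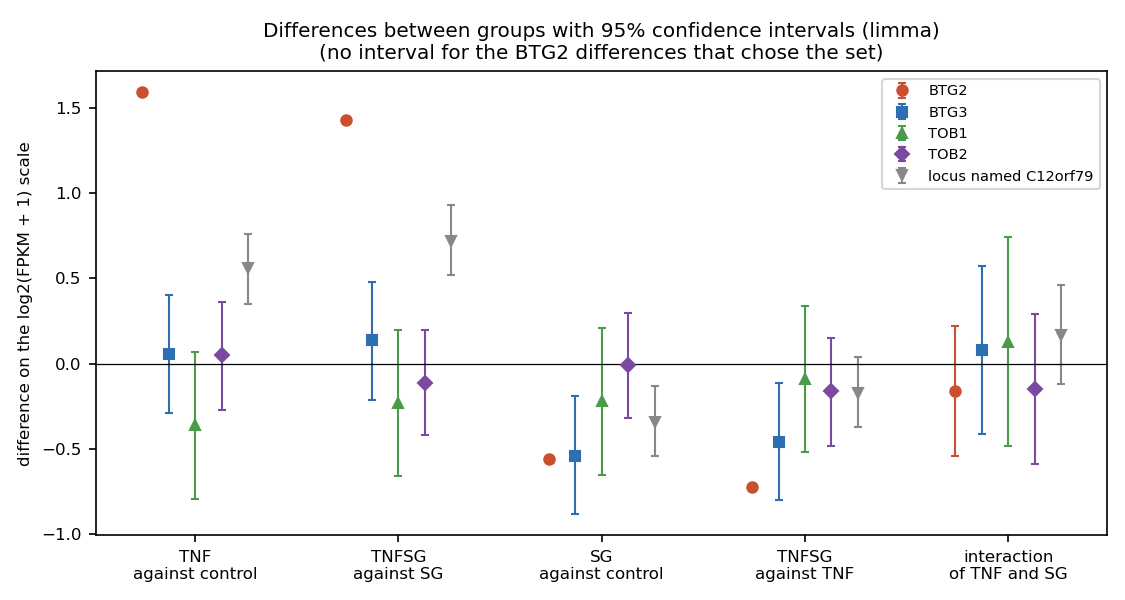
Difference between groups on the log2(FPKM + 1) scale (vertical axis) for each gene in the 4 pairwise comparisons and the interaction (horizontal axis), with 95% confidence intervals from limma, except for the BTG2 differences that chose the set, which are points alone. BTG2 stands at 1.59 and 1.43 in the TNF comparisons, and BTG2 and BTG3 lie below 0 in both comparisons of the targeted transfection.

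Below BTG2, the members that could be told apart were not the same in every group. In control BTG2 (22.8 to 27.7 FPKM) was followed by TOB1 and BTG3, whose values overlapped, and by TOB2 below them. In TNF, BTG3 and TOB1 again overlapped below BTG2, with TOB2 lowest. In SG the order was BTG2, TOB1 (10.8 to 12.8 FPKM) and then BTG3 and TOB2, which overlapped (6.55 to 8.38 and 6.51 to 7.17 FPKM). In TNFSG all 4 genes were separate, in the order BTG2, TOB1, BTG3 and TOB2.

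Summed over the 4 measured genes, the level was 57.2 ± 6.66 FPKM for control and 107 ± 12.4 for TNF, against 42.4 ± 1.26 for SG and 70.7 ± 3.14 for TNFSG (SD, n = 3). BTG2 made up 43.9 ± 0.943% of this sum in control and 72.3 ± 3.12% in TNF. It made up 39.2 ± 0.906% in SG and 65.7 ± 3.1% in TNFSG. After TNF, BTG2 therefore supplied most of the RNA of the measured members in both transfections. TOB1 held 24 ± 4.41% for control and 9.73 ± 1.21% for TNF, and 27.2 ± 3.1% for SG and 13.7 ± 1.49% for TNFSG.

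**Figure D3:**
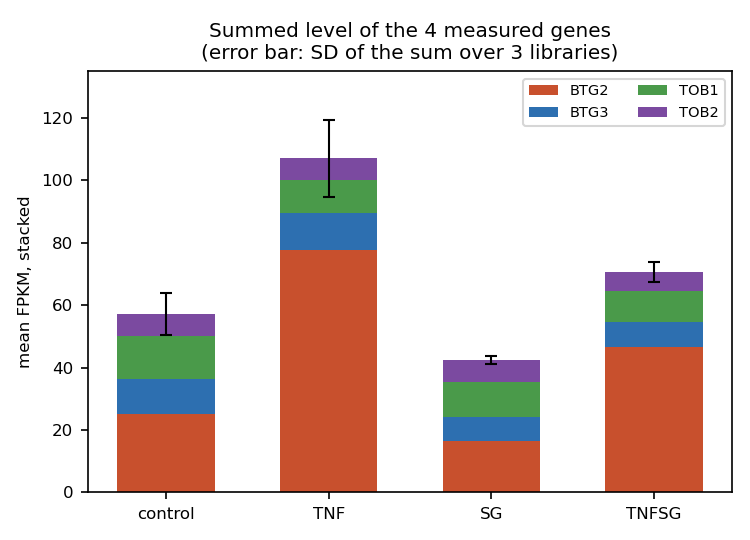
Stacked mean FPKM (linear vertical axis from 0) of BTG2, BTG3, TOB1 and TOB2 in the 4 groups, with the SD of the summed level over 3 libraries. The sum is highest in TNF at 107 FPKM and lowest in SG at 42.4 FPKM, and BTG2 is the largest part in each group.

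One further locus was examined after its values had been seen, because of where it lies. The locus named C12orf79, an older name of the non-coding gene LINC01619 in RefSeq, shares 503 exonic bases with BTG1 on the same strand in GENCODE release 29. BTG1 spans 92140278 to 92145897 on the minus strand of chromosome 12, and these bases are 10.4% of its exonic bases. The file gives no coordinates, so whether reads of BTG1 were counted in this locus is not known, and its values are not taken as BTG1. The control libraries gave 43.8, 41.4 and 38.9 FPKM at this locus and the TNF libraries 67.7, 62.3 and 54.5. With the targeted transfection, SG gave 32.1, 35.3 and 30.4 FPKM and TNFSG 53.2, 57 and 53.2. TNF libraries lay above control libraries, TNFSG above SG, and SG below control, all without overlap. Of all loci tested, 7.59%, 8.13% and 4.62% were separated in these ways. A second locus carried the same name, but its 21 reads over all 12 libraries, 13 of them in control replicate 2, were too few to compare groups.

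The C12orf79 locus rose by 0.56 ± 0.09 (log2, SE) for TNF against control (limma adjusted p 0.0157) and by 0.72 ± 0.09 for TNFSG against SG (limma adjusted p 0.00315). The first call was lost when control replicate 2 (0.067) or 3 (0.0776) was left out, or TNF replicate 1 (0.0539) or 2 (0.0642), and with no trend (0.0547) or only the groups compared (0.16). Over all alternatives its limma adjusted p ran from 0.00723 to 0.16. The second call held in every alternative run, with limma adjusted p values from 0.00178 to 0.0273. Of all loci tested, 1.45% passed in TNF against control and 1.64% in TNFSG against SG. The p values do not allow for the choice of this locus after its values had been seen. SG against control gave -0.34 ± 0.09 (limma adjusted p 0.257) and TNFSG against TNF -0.17 ± 0.09 (adjusted p 0.633). Over the 12 libraries its log2 level had a Pearson correlation of 0.955 with that of BTG2, as a description of values that share their libraries.

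Other genes were compared with each member over the same 12 libraries, among up to 11921 loci with 1 symbol and a mean of at least 5 FPKM. Among the patterns nearest to BTG2 were those of NAB1, a corepressor of EGR transcription factors (Pearson r 0.984), and UGCG, glucosylceramide synthase (0.979). NAB1 averaged 40.6 ± 1.89 FPKM for control and 64.5 ± 0.582 for TNF, and 33.2 ± 0.792 for SG and 49.9 ± 2.22 for TNFSG, the same order of groups as BTG2. Each gene named here was picked for its likeness to a member, so a shared order follows from that choice. Nearest to BTG3 were DTYMK, thymidylate kinase (0.967), MTMR2 (0.942) and PEX13, a peroxisomal import factor (0.936). DTYMK lay at 78.1 ± 9.04, 77.2 ± 14.4, 55.4 ± 4.75 and 57.7 ± 3.37 FPKM in the order control, TNF, SG and TNFSG. Nearest to TOB1 were WBP11 (0.937), MIER1 (0.931) and LUC7L3 (0.928), with Spearman's rho of 0.909, 0.713 and 0.72, and control replicate 1 was the library that stood apart in TOB1. Nearest to TOB2 were MED31 (0.844), TACC3 (0.843) and CREBBP (0.836). Among the members, BTG2 had an r of 0.417 with BTG3, -0.344 with TOB1 and 0.118 with TOB2, and TOB1 had 0.563 with TOB2.

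The genes of the deadenylation pathway were read from lists of the complex and its partners. Counts at an unadjusted p in these lists stand beside the shares of all loci given above, from 9.11% to 11.4% in the pairwise comparisons. Of 12 subunits and partners of CCR4-NOT, 1 rose and 0 fell in TNF against control, with a median log2 difference of -0.06 beside -0.02 for all loci tested. Another 2 were higher and 2 lower at an unadjusted p under 0.05. The gene that rose was TNKS1BP1, a large protein associated with the complex, from 9.89 ± 1.87 to 16.3 ± 0.865 FPKM (log2 0.68 ± 0.12, limma adjusted p 0.0267). It rose in TNFSG against SG as well, from 10.6 ± 0.408 to 17.8 ± 1.24 FPKM (limma adjusted p 0.0235). The first call was lost without control replicate 3 or any of the TNF libraries (limma adjusted p up to 0.1), with no trend, and with only the groups compared. The second was lost without any of its 6 libraries (up to 0.104). In SG against control and TNFSG against TNF, 0 of 12 passed by limma, with 1 and 0 at an unadjusted p under 0.05. CNOT9, listed under its older symbol RQCD1, lay at 58.7 ± 2.15 FPKM in SG and 73.6 ± 3.46 in TNFSG (limma adjusted p 0.129).

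Of 7 measured deadenylases of other families and poly(A)-binding proteins, PAIP1 fell in SG against control, and 0 passed in the other pairwise comparisons by limma (unadjusted p under 0.05: 1 for TNF against control, 2 for TNFSG against TNF, 0 for TNFSG against SG). PAIP1, a partner of the poly(A)-binding protein in translation, lay at 50.5, 52.8 and 50.3 FPKM in control and 36.6, 37.7 and 35.9 in SG. Its log2 difference was -0.47 ± 0.06 with a limma adjusted p of 0.0190, and the call was lost without any of the 6 libraries (up to 0.107), with no trend, and with only the groups compared. In TNF it lay at 43.9, 46.6 and 46.3 FPKM and in TNFSG at 34.4, 36.1 and 37.3, a log2 difference of -0.34 ± 0.06 with a limma adjusted p of 0.0691. The libraries with the targeted transfection were thus below those without it in both pairs of groups, as at 1.50% of all loci tested. PAIP1 was named because it passed in SG against control, so its separation in that pair follows in part from the choice.

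Of 9 decapping and 5′ to 3′ decay genes, PATL1, a scaffold that links deadenylation to decapping, rose with TNF in both transfections. It went from 27.2 ± 2.24 to 41.7 ± 2.65 FPKM (log2 0.60 ± 0.08, limma adjusted p 0.00464) and from 24.9 ± 1.16 to 38.4 ± 1.95 FPKM (limma adjusted p 0.00424). At an unadjusted p under 0.05, 2 of the 9 were higher and 2 lower in TNF against control. Both calls held whichever library was left out, and the first was lost with only the groups compared (0.101). In SG against control and TNFSG against TNF, 0 of 9 passed by limma, with 3 in each at an unadjusted p under 0.05. Of 12 measured recruiters of deadenylases, 0 passed in any comparison by limma, although 1 had an unadjusted p under 0.05 for TNF against control and 2 did in each other pairwise comparison. ZFP36L1, which brings the deadenylase to AU-rich messenger RNAs, lay at 30.4 ± 5.15 FPKM in control and 38.8 ± 4.61 in TNF (limma adjusted p 0.343). TNRC6A, the bridge from microRNA complexes to CCR4-NOT, lay at 17.1 ± 2 FPKM in control and 21.7 ± 1.42 in SG (limma adjusted p 0.264).

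The G1/S list holds the cyclins that the family is known to restrain. Of its 19 genes, CCND2, which codes for cyclin D2, rose in TNF against control from 13.8 ± 0.854 to 35.8 ± 4.52 FPKM (log2 1.31 ± 0.10, limma adjusted p 0.000109). It rose in TNFSG against SG from 13 ± 0.717 to 31.2 ± 1.35 FPKM (limma adjusted p 0.000195), and both calls held in every alternative run. CCND1, which codes for cyclin D1, lay at 139, 156 and 95.7 FPKM in control and 418, 360 and 284 in TNF. In SG it lay at 128, 95.5 and 61.3 FPKM and in TNFSG at 192, 126 and 122. All TNF libraries lay above all others.

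CCND1 did not pass over all loci in TNF against control (log2 1.45 ± 0.30, limma adjusted p 0.0516) or in TNFSG against TNF (-1.28 ± 0.30, limma adjusted p 0.220). Its group means stood in the same order as those of BTG2, but its control libraries overlapped with both SG and TNFSG, whereas the BTG2 groups did not overlap. MYC, which drives G1 progression, lay at 168 ± 21 FPKM in control and 125 ± 9.6 in SG, without passing (limma adjusted p 0.237). For TNF against control, 4 of the 19 were higher and 1 lower at an unadjusted p under 0.05. In the list as a whole, 0 of 19 passed in SG against control and in TNFSG against TNF by limma, with 1 and 3 at an unadjusted p under 0.05, and the medians were -0.03 and -0.11 beside 0.08 for all loci in both.

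Of 14 SMAD and ID genes and further binding partners of the family, SMAD3 rose with TNF in both transfections, from 41.1 ± 3.03 to 97.4 ± 3.29 FPKM and from 42.6 ± 3.88 to 100 ± 4.28 FPKM. SMAD3 transmits TGF-beta signals, and TOB1 is known to bind SMAD proteins. Its log2 differences were 1.23 ± 0.08 and 1.22 ± 0.08, with limma adjusted p values of 5.3e-05 and 5.34e-05 that held in every alternative run. At an unadjusted p under 0.05, 1 of the 14 was higher and 4 were lower in TNF against control, and 2 were higher and 3 lower in TNFSG against SG. The ID genes, whose products inhibit basic helix-loop-helix factors, had lower means with TNF without passing. ID2 averaged 9.82 ± 0.995 FPKM in control and 5.72 ± 0.94 in TNF (limma adjusted p 0.146), and ID1 27.2 ± 6.02 FPKM in SG and 11.6 ± 4.39 in TNFSG (limma adjusted p 0.134). The log2 differences for TNF against control were -1.04 for ID1, -0.69 for ID2 and -0.65 for ID3. PRMT1, a methyltransferase that binds BTG1 and BTG2, averaged 181 ± 23.7 FPKM for control and 190 ± 16.4 for TNF, and 177 ± 2.63 for SG and 178 ± 8.17 for TNFSG. In SG against control and TNFSG against TNF, 0 of 14 passed by limma, with 2 and 3 at an unadjusted p under 0.05.

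Of 9 known upstream regulators, NFKB1 and STAT5A rose with TNF in both transfections and STAT5B fell in SG against control. NFKB1, a subunit of NF-kB, went from 12 ± 1.75 to 53.8 ± 3.29 FPKM and from 10.3 ± 1.74 to 50.6 ± 2.44 FPKM (limma adjusted p 3.39e-05 and 2.43e-05). STAT5A went from 42.3 ± 3.3 to 73.2 ± 4.57 FPKM and from 40.8 ± 6.75 to 69.4 ± 7.32 FPKM (limma adjusted p 0.0130 and 0.0148), and each call was lost without any of 3 of its 6 libraries (up to 0.0671 and 0.0680). Those were control replicate 2, TNF replicate 1 and TNF replicate 3 for the first, and SG replicate 3, TNFSG replicate 1 and TNFSG replicate 3 for the second, which was also lost with only the groups compared. In each TNF comparison 3 of the 9 were higher and 0 lower at an unadjusted p under 0.05. STAT5B lay at 30.3, 31.3 and 30.6 FPKM in control and 20.7, 15.8 and 16.9 in SG (log2 -0.76 ± 0.11, limma adjusted p 0.0463). That call was lost without any of its libraries but SG replicate 1 (up to 0.203), with no filter, with no trend, and with only the groups compared. In TNFSG against TNF, 0 of 9 passed by limma, with 1 at an unadjusted p under 0.05, which was STAT5B at 25.7 ± 0.761 FPKM in TNF and 15.1 ± 2.25 in TNFSG.

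In the interaction 0 genes of these 7 lists passed by limma, with 0 at an unadjusted p under 0.05. The median log2 difference for SG against control was -0.17 in the decapping list, -0.13 among the upstream regulators, -0.07 among the recruiters, -0.04 among the other deadenylases and 0.02 in the SMAD list, beside 0.08 for all loci tested. For TNF against control these medians were 0.11, 0.10, 0.07, -0.01 and 0.06, beside -0.02 for all loci. The medians describe the lists and were not tested.

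**Figure D4:**
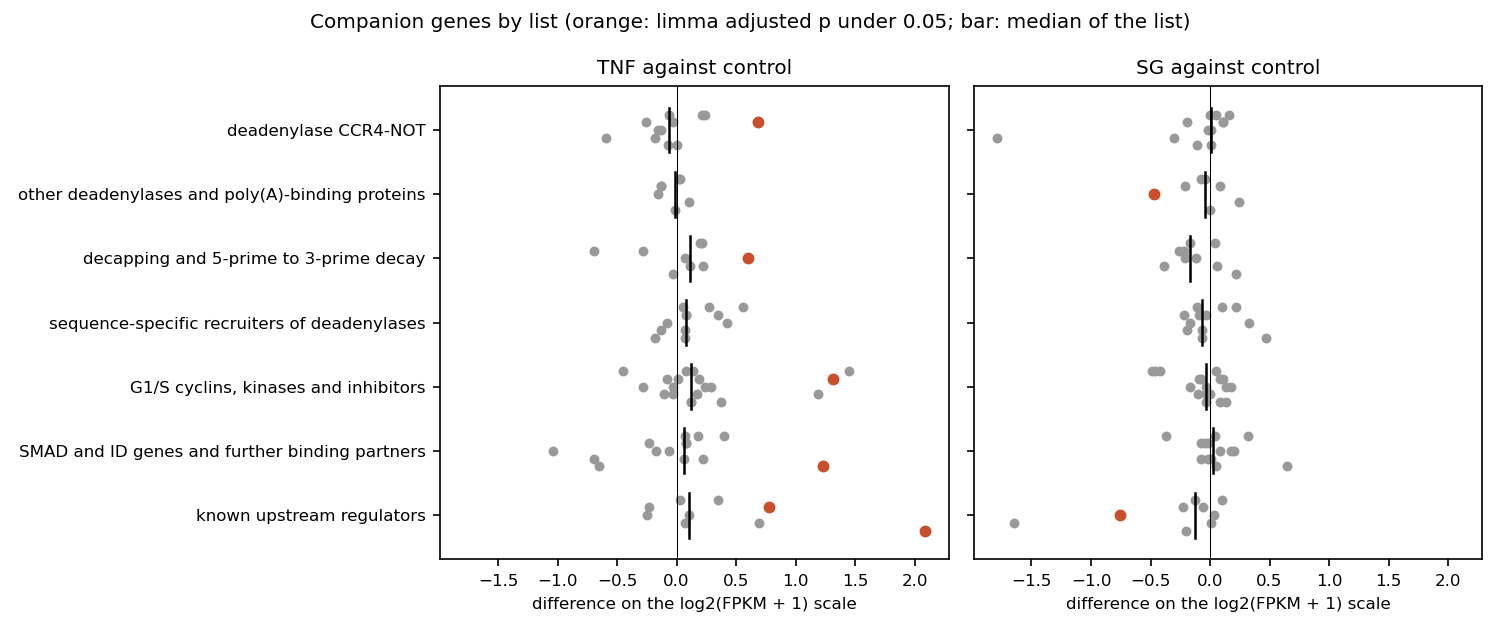
Difference on the log2(FPKM + 1) scale (horizontal axis) of each gene in the 7 companion lists (vertical axis) in TNF against control (left) and SG against control (right), with genes past a limma adjusted p of 0.05 in orange and the median of each list as a bar. CCND2 at 1.31, SMAD3 at 1.23 and NFKB1 at 2.09 stand to the right in the left panel, and PAIP1 at -0.47 and STAT5B at -0.76 are the genes past the threshold in the right panel.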

How the data were processed

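RNA-seq of 12 K562 libraries was analysed from the authors' deposited table of FPKM values, 1 column per library. Per the submitters' processing notes, Bowtie2 2.2.9, TopHat2 2.0.14 and Cufflinks were used with hg38; no version of Cufflinks, annotation or strand setting was stated there. Reads were single and 50 bases long, per the labels' protocols.

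The test used log2(FPKM + 1) for the 32866 loci that reached 1 FPKM in 3 or more libraries. A model with 4 group means was fitted to the 12 libraries together (R 4.3.3, limma 3.58.1, eBayes with trend). Its two-sided p-values were adjusted by the Benjamini-Hochberg method across every locus tested. Fold changes on this scale understate the change of low loci. On simulated data with known changes, the model called 38% to 46% of log2 changes of 1 in pairwise comparisons and 13% in the interaction. For log2 changes of 2 these shares were 58% to 74% and 47%. False calls made up 0.99% to 9.65% of all calls. A gene that did not pass may thus still have changed. Whole reads were recovered from steps in low values (tolerance 0.03 reads), which held for 9821 of 10199 loci at 0 in at least 2 libraries and for 4 with decoy depth factors; the total depth is unknown. The members and lists were chosen with earlier results of these data known, so a list gets counts and a median, not a test of its own.

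Named genes were the members, the list genes past the threshold (up to 4 per list and comparison), some of the 2 of lowest p per list and comparison, and the 3 loci most like each member. One gene that this rule names is not reported here. Where a symbol had several loci, the one of highest mean was used. The C12orf79 locus was named after its values were seen. PABPN1, ZFP36L2, CPEB2 and NANOS3 were not found by name and are not analysed here. Same-numbered replicates were treated as unpaired. Alternatives were the replicate block, other pseudocounts, filters and scalings, no trend, only the groups compared, summed loci and each library left out. Python 3.11.15, numpy 2.4.6, pandas 2.3.3, scipy 1.17.1 and matplotlib 3.10.9 were used, with annotation from GENCODE release 29.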

Additional observations from a re-analysis of the deposited data

How the results depend on the processing

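No call was gained by BTG3, TOB1 or TOB2 under any alternative run, nor by any member in the interaction. The log2 difference of BTG2 moved by more than its replicate spread in 1 setting, SG against control with quantile normalization (-0.67), which shifted the median of all loci from 0.08 to -0.04. With single libraries left out, TOB1 ran from -0.49 to -0.14 in TNF against control, lowest in size without control replicate 1, and differences close to 0 changed sign: BTG3 ran from -0.06 to 0.22 and TOB2 from -0.11 to 0.14 in TNF against control, TOB1 from -0.35 to 0.00 and TOB2 from -0.17 to 0.08 in SG against control, and TOB1 from -0.22 to 0.04 in TNFSG against TNF. In the interaction BTG3 ran from -0.09 to 0.20, TOB1 from -0.09 to 0.26 and TOB2 from -0.25 to 0.01. None of these differences passed the threshold in any fit.

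The numbers of changed loci depended more on the settings. In TNF against control 478 loci changed, 831 with the replicate block, 172 with only the groups compared, and 294 to 432 with a library left out. In TNFSG against SG 540 changed, 843 with the replicate block, 256 with only the groups compared and 311 to 364 with a library left out. In SG against control 56 changed, 115 with a filter at 5 FPKM, 16 with no trend, 7 with only the groups compared and 10 to 29 with a library left out. In TNFSG against TNF 42 changed, 97 with the filter at 5 FPKM, 78 with median-ratio scaling, 18 with no trend, 2 with only the groups compared and 7 to 18 with a library left out. In the interaction 3 changed, 12 with a pseudocount of 0.1 and 1 to 6 with a library left out. In SG against control 18 rose and 38 fell, 17 and 66 with median-ratio scaling and 11 and 48 with quantile normalization. In TNFSG against TNF 19 rose and 23 fell, 19 and 59 with median-ratio scaling and 16 and 35 with quantile normalization. The cause of these shifts was not tested. The replicate block changed no call of a member. Deviations from the group means correlated between same-numbered libraries at 0.00651 to 0.138, and 1 of 18 pairs was over 0.1, so the numbers were not taken to pair the samples. All 18 correlations were above 0, and 7 of 12 libraries correlated best with a library of their own number, which is a hint of pairing. The sample titles also give libraries of the same number a shared letter (A, B or C), without saying what it stands for.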
